A study of Mus musculus with 12 samples.

Results

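The membrane adhesion molecules and cytoskeletal anchors of the node of Ranvier and of the paranode beside it are encoded by 9 genes described here, namely Nfasc, Cntn1, Cntn2, Cntnap1, Cntnap2, Ank3, Sptbn4, Epb41l3 and Nrcam. They were chosen by name, by a rule that uses no measured value but was written with earlier results of these data known, and all 9 were found among the 49548 genes counted in each library. RNA of lumbar spinal cord was sequenced from 8 MFN2 and 4 WT mice, to look for changes in expression that could serve as markers of disease in a model of the axonal neuropathy Charcot-Marie-Tooth type 2A. All mice were 30 days old and untreated. The MFN2 mice, of the line MitoCharc1 with the transgene Tg(Eno2-MFN2*R94Q)L51Ugfm on a B6;D2 background, carried a human MFN2 transgene with the R94Q substitution besides their own mouse Mfn2, under the rat Eno2 promoter, which is specific to neurons, and the labels call them CMT2A. The WT mice are labelled C57BL/6, and the study's text names them both so and as littermates. The labels number the MFN2 libraries 41 to 43 and 72 to 76 and the WT libraries 44 to 47, and what the numbers mark is not stated. No WT library is numbered 72 to 76, so that genotype and library number cannot be told apart in those 5 libraries. The libraries held between 19359454 and 26738930 counts, and the 9 genes between 2551 and 32971 counts each per library, so that counting error was small beside the spread between mice.

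The node of Ranvier is the short gap between myelin segments where sodium channels are packed and the action potential is renewed. Ankyrin G (Ank3) and βIV spectrin (Sptbn4) anchor the channels from inside the axon, and the neuronal form of neurofascin (Nfasc) together with NrCAM (Nrcam) holds them from the cell surface. At the paranode, contactin (Cntn1) and Caspr (Cntnap1) of the axon meet the glial form of neurofascin in a septate-like junction, which a membrane-cytoskeleton linker of the FERM domain family (Epb41l3) ties to the axonal spectrin. In the neighbouring juxtaparanode, TAG-1 (Cntn2) and Caspr2 (Cntnap2) gather the Kv1 potassium channels. Neurofascin and TAG-1 are made by neurons and by oligodendrocytes, and in RNA of whole tissue a change in the number of cells of a type and a change in RNA per cell cannot be told apart.

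In GRCm38, the build of the submitters' notes, Nfasc (ENSMUSG00000026442) lies on the minus strand at chr1:132564690-132741797 and Cntn2 (ENSMUSG00000053024) on the same strand at chr1:132509427-132543256, so that 21433 bases separate these neighbours. The paranodal genes besides Nfasc are Cntn1 (ENSMUSG00000055022, chr15:92051165-92341967), Cntnap1 (ENSMUSG00000017167, chr11:101170523-101190724) and Epb41l3 (ENSMUSG00000024044, chr17:69075683-69289989). Cntnap2 (ENSMUSG00000039419) spans 2244857 bases at chr6:45059357-47304213. The nodal anchors are Ank3 (ENSMUSG00000069601, chr10:69398773-70027438) and Sptbn4 (ENSMUSG00000011751, chr7:27356383-27447686), and Nrcam (ENSMUSG00000020598) lies at chr12:44328885-44601964. Of these genes, 2 share exonic bases with a gene that overlaps them, and without a stated strand setting such reads cannot be assigned with certainty. Cntnap1 shares 233 bases with Plekhh3 on the opposite strand, which had at most 234 counts in a library. Sptbn4 shares 134 bases with Gm20479 and 243 with Gm44924, which had at most 3 counts.

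Cntn2 and Nfasc were the 2 members called by edgeR with the main settings in any of the 4 comparisons, in opposite directions, so the 250 bases upstream of their start sites are shown. They are read from the RefSeq promoter table (GRCm38.p6), which matched 7 of the 9 genes with 16 windows, and they are written in the direction of transcription with matches to the searched motifs in capitals. The Cntn2 window is chr1:132542941-132543190 and the Nfasc window chr1:132707327-132707576, the first of 2 that the table holds for Nfasc, and both lie inside the longer gene spans of the GENCODE annotation given above.
Cntn2: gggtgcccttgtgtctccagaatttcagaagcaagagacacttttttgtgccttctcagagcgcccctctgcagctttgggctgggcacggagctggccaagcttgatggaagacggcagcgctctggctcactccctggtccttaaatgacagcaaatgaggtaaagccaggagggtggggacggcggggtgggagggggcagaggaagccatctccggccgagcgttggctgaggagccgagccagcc
Nfasc: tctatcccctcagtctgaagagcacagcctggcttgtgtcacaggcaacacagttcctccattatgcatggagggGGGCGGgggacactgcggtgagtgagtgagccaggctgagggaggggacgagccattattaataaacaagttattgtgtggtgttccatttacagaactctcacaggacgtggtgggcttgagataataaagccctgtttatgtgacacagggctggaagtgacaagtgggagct
The GC box letters GGGCGG, the TATA box letters TATAAA, the E-box letters CACGTG and the SOX motif letters ACAAAG were searched on both strands. The 1 match found shared no bases with another. GGGCGG was found once in the Nfasc window and not in the Cntn2 window, and it was present in 32.7% of the 32851 mouse promoter windows of the table. Neither window held the TATA box, E-box or SOX letters, which were present in 12.4%, 6.02% and 16.5% of all windows. The GC content was 61.2% in the Cntn2 window and 52% in the Nfasc window, beside a median of 52.4% over all windows.

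MFN2 library 43 stood apart from the other 11 in the markers of tissue and cell type. Its summed level of 11 forebrain genes was 4776 CPM (counts scaled to library size, with the trimmed mean of M values), whereas the others held 112 to 209 CPM. Its 10 caudal Hox genes, which mark the posterior spinal cord, summed to 45.5 CPM, beside 254 to 328 CPM in the others. The forebrain regulator Emx1 was at 6.76 CPM in library 43 and at or below 0.153 CPM elsewhere, with 0 counts in several libraries. Mature oligodendrocyte markers summed to 8361 CPM in library 43 and to between 21560 and 34598 CPM in the rest, and motor neuron markers to 35.5 CPM against 154 to 370 CPM. The markers of library 43 thus go against its label of spinal cord, and the fold changes of comparisons that hold it are given with and without it where it moved them most. The other 11 libraries held the Hox genes and the motor neuron markers at the summed levels given, and the Hox sum, led by Hoxb8, hides a split among them. Hoxd10, a gene of the more caudal cord, was at 23.3 CPM in WT 44 and at 0.24, 2.66 and 6.94 CPM in WT 45 to 47. It was at 1.87 and 31.6 CPM in MFN2 libraries 41 and 42, and at 28.8, 13.9, 29.1, 29.2 and 7.49 CPM in libraries 72 to 76. Hoxd11 was split in the same way, from 0 counts in MFN2 41 and WT 45 to 16.4 CPM in MFN2 42, whereas Hoxc8, of a more rostral domain, was lowest of the 11 in WT 44, at 10.2 CPM, and highest in WT 47, at 69.2 CPM. MFN2 libraries 43 and 73 also held more of the Schwann cell markers, which come with spinal roots, with sums of 293 and 321 CPM against 43.2 to 84.0 CPM. Of this list, Pmp22 was the most abundant gene and Pmp2 was at or near 0 throughout.

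**Figure D1:**
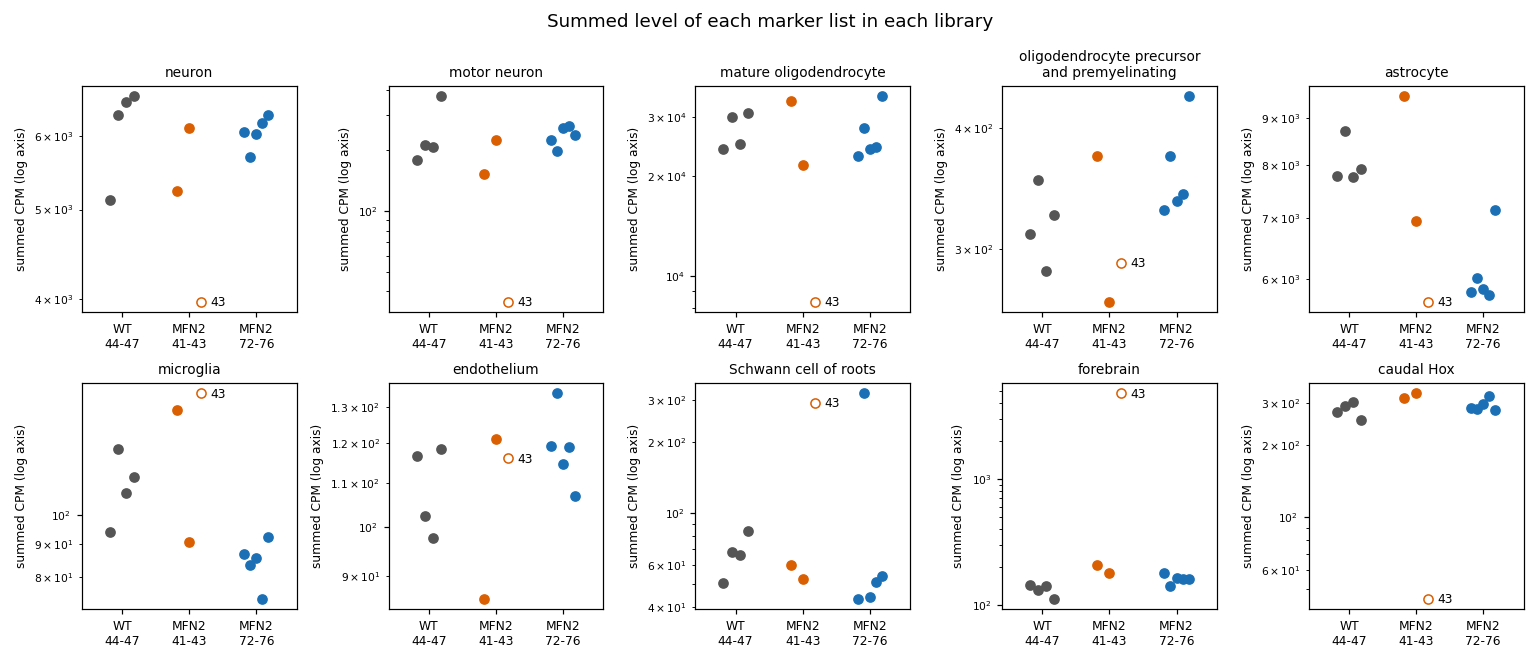
Summed level of 10 marker lists in each library (y axes: summed CPM, log scale; grey: WT, orange: MFN2 libraries 41 to 43, blue: MFN2 libraries 72 to 76; open circle: library 43). Library 43 stands at 4776 CPM for the forebrain list and at 45.5 CPM for the Hox list, away from the other 11 libraries, and the 5 MFN2 libraries 72 to 76 lie below the 4 WT libraries for the astrocyte and microglia lists.

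Mouse Mfn2 did not separate the genotypes and the human transgene was not analysed here. Mfn2 was at 194, 222, 228 and 209 CPM in the WT libraries and between 190 and 223 CPM in the MFN2 libraries, with a log2 fold change of -0.047 ± 0.065 (SE, adjusted p = 0.733, quasi-likelihood test of edgeR, adjusted after Benjamini and Hochberg), and -0.063 (adjusted p = 0.553) without library 43. Its groups overlapped.

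Per length of exon, the paranodal genes Epb41l3, Cntn1 and Nfasc held the highest levels of the 9 in WT cord. They stood at 64.2 ± 6.74, 62.1 ± 3.30 and 61.7 ± 3.14 RPKM (SD, n = 4, CPM per kilobase of the union of annotated exons). The ranges of these 3 overlapped with their neighbours in the order. A gap without overlap followed, below which lay Cntn2 at 39.0 ± 5.79, Cntnap1 at 36.6 ± 2.87 and Ank3 at 34.6 ± 1.61 RPKM, again with overlap from each to the next. Sptbn4 at 25.8 ± 2.15, Nrcam at 18.7 ± 0.869 and Cntnap2 at 14.1 ± 0.881 RPKM closed the order, and each lay below the one before it in all 4 libraries. In the 8 MFN2 libraries Cntn2 stood at 28.9 ± 6.45 RPKM and came below Ank3 at 35.7 ± 3.11 RPKM, with overlap, and without library 43 these levels were 30.5 ± 4.92 and 36.6 ± 1.96 RPKM (n = 7). The order depends on the length used. Ank3 has 47 annotated transcripts whose exons together cover 34838 bases, and when the longest transcript of 9963 bases was taken instead, Ank3 moved from place 6 to place 2 of the WT order, at 121 CPM per kilobase.

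**Figure D2:**
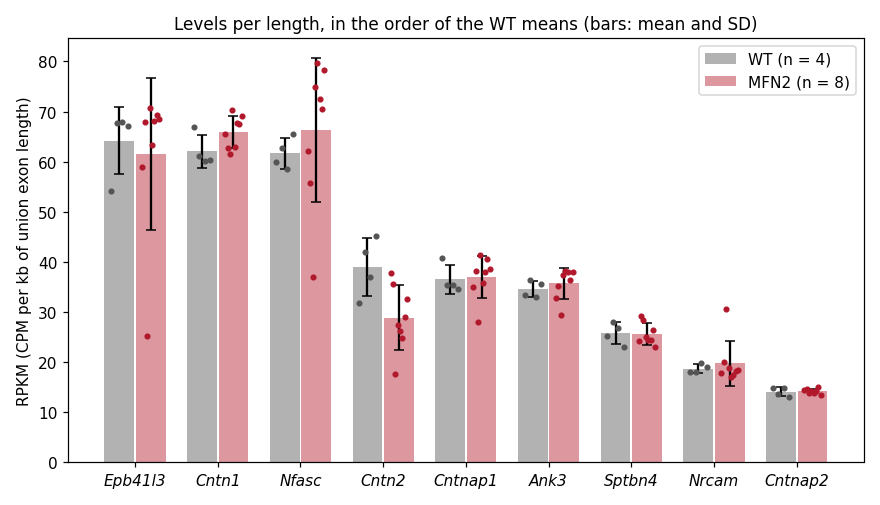
Levels of the 9 genes per kilobase of exon (y axis: RPKM; bars and whiskers: mean and SD; points: libraries; grey: WT, n = 4; red: MFN2, n = 8), in the order of the WT means. Epb41l3, Cntn1 and Nfasc lead at 64.2, 62.1 and 61.7 RPKM and Cntnap2 is lowest at 14.1 RPKM. The single low MFN2 points of Nfasc and Epb41l3 and the single high point of Nrcam are library 43.

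Over all 12 libraries, no member was called between MFN2 and WT mice. In edgeR's test 0 of 9 genes passed an adjusted p of 0.05, as did 0 of the 15942 genes tested (0%). At an unadjusted p under 0.05 there was 1 member, Cntn2, beside 15.0% of all genes, and DESeq2 and limma-voom also called 0 members, where DESeq2 called 0.710% of all genes. The median log2 fold change was 0.014 over the 9 genes and 0.0038 over all genes tested. None of the 9 had groups that did not overlap, against 2.04% of all genes.

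Cntn2 had the largest difference of the 9 in this comparison. Its levels were 297, 391, 345 and 419 CPM in the WT libraries, and 164, 263 and 351 CPM as the lowest, the median and the highest MFN2 library. The groups overlapped, with 6 of the 8 MFN2 libraries at or below 304 CPM and the lowest WT library at 297 CPM. The log2 fold change was -0.43 ± 0.17 (SE, adjusted p = 0.289 by edgeR with Benjamini-Hochberg adjustment), and -0.35 (adjusted p = 0.147) without library 43, where 0 members and 0.120% of genes were called. Nfasc stood at 848, 888, 827 and 927 CPM in WT and at 523, 1011 and 1126 CPM as the lowest, the median and the highest MFN2 library. The MFN2 libraries lay on both sides of the WT range. Its log2 fold change was 0.10 ± 0.17 (adjusted p = 0.769), and 0.19 (adjusted p = 0.231) without library 43.

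For the other 7 genes the fitted differences were between -0.062 and 0.086 on the log2 scale, and their groups overlapped. Library 43 set the spread of Epb41l3, which was at 301 CPM there and at 645 to 842 CPM in the other 11 libraries, and of Nrcam, at 409 CPM there and 227 to 268 CPM elsewhere. Without it the signs turned, from -0.062 to 0.055 for Epb41l3 and from 0.080 to -0.037 for Nrcam, and neither value passed the test. Cntnap2 was the steadiest of the genes, at 144 ± 9.03 CPM (SD, n = 4) in WT and 146 ± 5.22 CPM (n = 8) in MFN2 mice, with a coefficient of variation of 4.36% over the 12 libraries. Cntn2 varied most, at 24.1% over the 12 libraries and 19.5% without library 43.

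In the MFN2 libraries 72 to 76 alone, Nfasc was higher and Cntn2 lower than in the 4 WT libraries. These were 2 of 9 members past an adjusted p of 0.05, beside 23.8% of the 15743 genes tested (1 member rose beside 11.1% of genes called higher, and 1 fell beside 12.7% called lower), so that the share of members called lay near that of all genes. Without library 73, Nfasc and Cntn2 were again the 2 members called, beside 20.3% of genes. DESeq2 called 3 members beside 22.8%. Genotype and library number cannot be told apart in this comparison.

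Nfasc, which organises both node and paranode, was at 1061, 1126, 1025, 996 and 1107 CPM in the MFN2 libraries 72 to 76. All 5 lay above the highest WT library, at 927 CPM, a separation seen in 19.8% of the genes tested. The log2 fold change was 0.28 ± 0.054 (SE, adjusted p = 0.00363, edgeR with Benjamini-Hochberg adjustment), which is 1.22-fold, and 0.27 (adjusted p = 0.00763) without library 73.

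Cntn2, the axonal and glial adhesion molecule of the juxtaparanode, was at 256, 244, 231, 269 and 304 CPM in these 5 libraries. All but the last lay below the lowest WT library, WT 44 at 297 CPM, so that the groups overlapped by that pair. WT 44 was also the WT library with the most Hoxd10, and library 76 held the least Hoxd10 of these 5, while MFN2 42, with 31.6 CPM of Hoxd10, held 331 CPM of Cntn2. Outside library 43, Cntn2 was at 304 to 419 CPM in every library with Hoxd10 at 7.49 CPM or below. It was at 231 to 331 CPM in every library with Hoxd10 at 13.9 CPM or above. Of the 10 Hox genes 0 were called between libraries 72 to 76 and WT, and 1 had an unadjusted p under 0.05, beside 23.8% and 37.8% of all genes. Hoxd10 was split within both groups, which a test between the groups does not show. The part of the level of the cord in the difference of Cntn2 was not tested. The log2 fold change was -0.48 ± 0.10 (adjusted p = 0.00847), and -0.45 (adjusted p = 0.0215) without library 73. Cntnap2, whose protein pairs with TAG-1 at the juxtaparanode, differed by 0.0040 ± 0.052 (adjusted p = 0.966) in the same libraries.

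Among the nodal anchors, Ank3 was at 1304, 1329, 1326, 1270 and 1326 CPM in the MFN2 libraries 72 to 76 and at 1162, 1265, 1152 and 1239 CPM in WT. All 5 were above all 4, and 19.8% of all genes tested had groups without overlap. The log2 fold change of 0.12 ± 0.047 had an adjusted p of 0.0780 in edgeR and 0.0430 in DESeq2. Sptbn4 differed by -0.064 ± 0.060 (adjusted p = 0.473), and the nodal adhesion molecule Nrcam by -0.062 ± 0.049 (adjusted p = 0.381). The axonal pair of the paranode, Cntn1 and Cntnap1, differed by 0.12 ± 0.051 (adjusted p = 0.108) and 0.086 ± 0.061 (adjusted p = 0.332). Epb41l3 differed by 0.081 ± 0.068 (adjusted p = 0.411). When counts were scaled to library size alone, Cntn1 and Ank3 also passed, so that 4 members were called beside 26.5% of genes, and 2822 of 4167 called genes were then higher, against 1746 of 3746 with the main scaling.

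**Figure D3:**
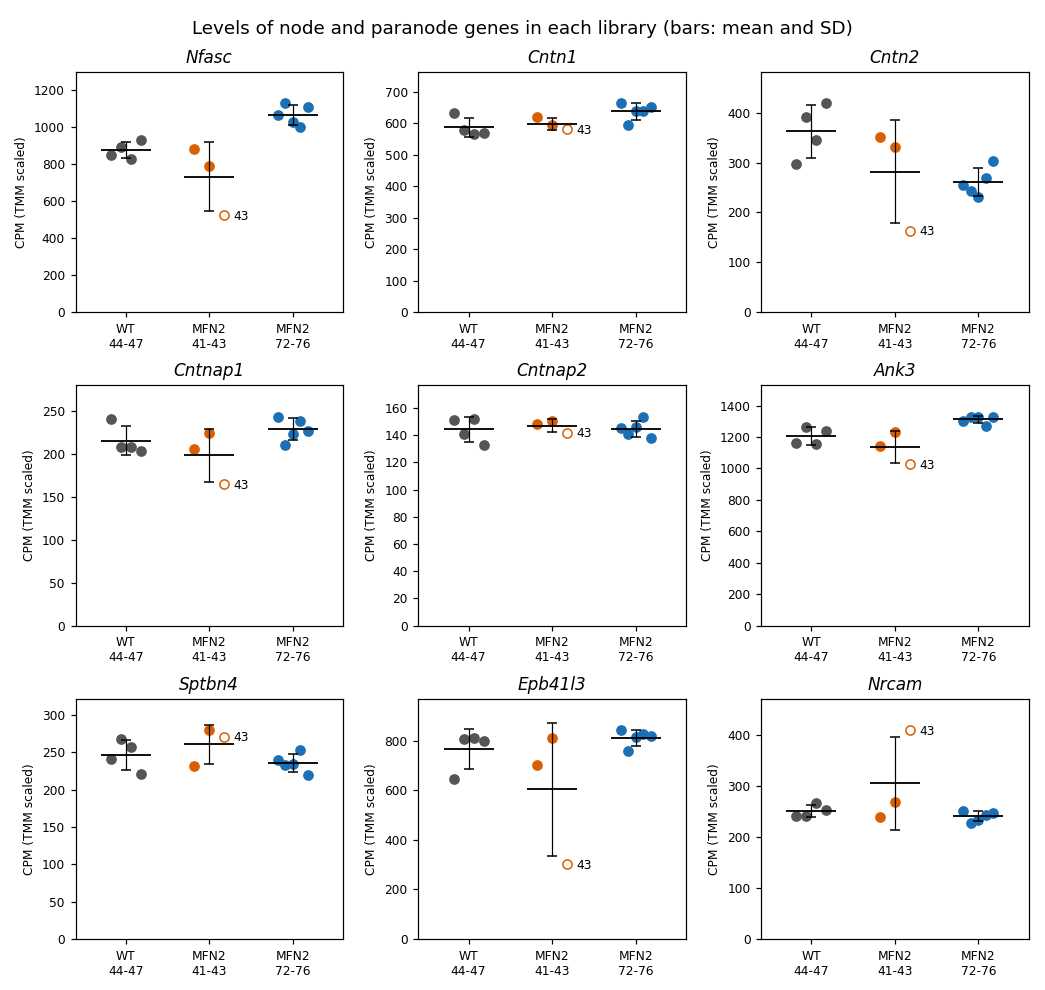
Level of each of the 9 genes in each library (y axes: CPM, from 0; grey: WT libraries 44 to 47, orange: MFN2 libraries 41 to 43, blue: MFN2 libraries 72 to 76; lines and whiskers: mean and SD; open circle: library 43). All 5 blue points of Nfasc lie above the WT points, 4 of 5 blue points of Cntn2 lie below them, and library 43 lies lowest for Nfasc, Cntn2, Cntnap1, Ank3 and Epb41l3 and highest for Nrcam.

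In the MFN2 libraries 41 to 43, which share their run of numbers with the WT libraries, 0 of 9 members were called, beside 1 of 15200 genes (0.00658%). None passed an unadjusted p of 0.05 either, beside 7.12% of all genes, and DESeq2 called 0 members beside 0.0115%. The groups overlapped for all 9 members, against 8.97% of genes without overlap. Nfasc was at 879, 788 and 523 CPM in libraries 41, 42 and 43, and its log2 fold change against WT was -0.25 ± 0.16 (adjusted p = 0.641), opposite in sign to that of libraries 72 to 76 against the same WT libraries. Cntn2 was at 351, 331 and 164 CPM, with a log2 fold change of -0.35 ± 0.26 (adjusted p = 0.657). Without library 43 these values were -0.058 for Nfasc (adjusted p = 0.956) and -0.079 for Cntn2 (adjusted p = 0.963), where 2 libraries stand against 4, and 0 members were called beside 0.00667% of genes. In library 43 Nfasc, Cntn2, Cntnap1, Ank3 and Epb41l3 were below every other library and Nrcam above every other.

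The difference between the 2 runs of MFN2 libraries was tested directly, within the genotype. Libraries 72 to 76 against 41 to 43 gave 0 of 9 members called, beside 2.19% of the 15633 genes tested, and 2 members with an unadjusted p under 0.05 beside 24.6%, while DESeq2 called 1 member, Nfasc, beside 8.20%. Without library 73, 0 members were called beside 0.220% of genes. Nfasc differed by 0.53 ± 0.14 (adjusted p = 0.0857, edgeR with Benjamini-Hochberg adjustment) and Ank3 by 0.19 ± 0.071 (adjusted p = 0.151), whereas Cntn2 differed by -0.13 ± 0.22 (adjusted p = 0.750). Both were higher in all 5 libraries of the later numbers than in all 3 of the earlier ones, and 18.4% of all genes had groups that did not overlap in either direction. Without library 43 the same comparison called 2 members beside 15.3% of genes, Nfasc at 0.34 (adjusted p = 0.00950) and Cntn2 at -0.40 (adjusted p = 0.0164), with Ank3 at 0.13 (adjusted p = 0.131). These calls rest on leaving out library 43, and the comparison shares libraries 72 to 76 with that against WT.

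**Figure D4:**
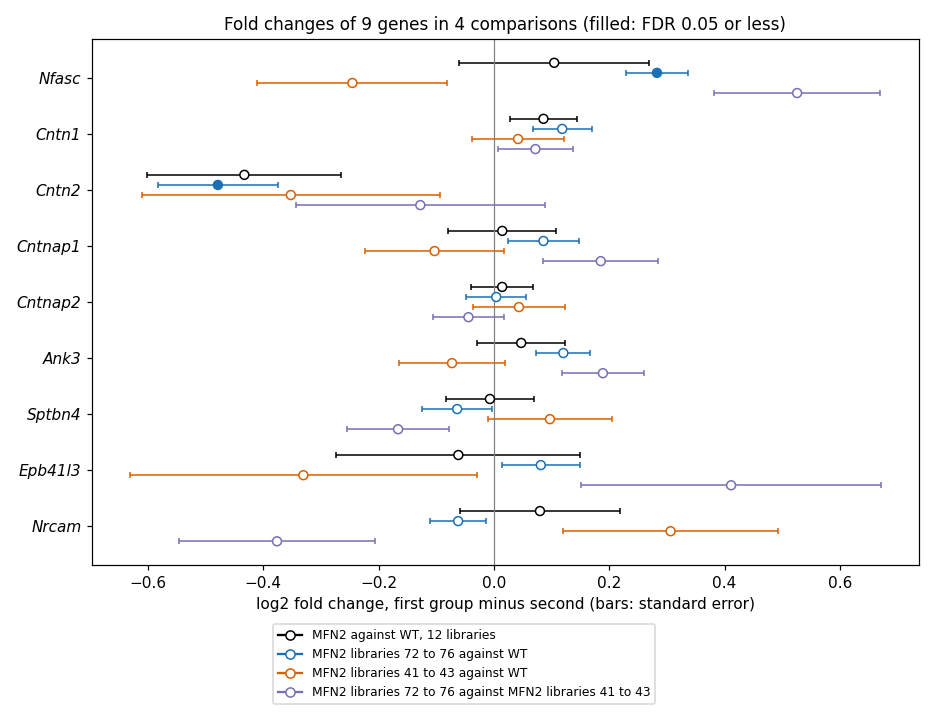
Log2 fold change of each gene in 4 comparisons (x axis: log2 scale, first group minus second; bars: standard error; filled points: adjusted p of 0.05 or less). Filled points are Nfasc at 0.28 and Cntn2 at -0.48, both in the comparison of MFN2 libraries 72 to 76 with WT, and Nfasc lies at -0.25 for libraries 41 to 43 against WT.

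Genes related to the 9 members were taken from 6 lists, of which the last holds 23 paralogs of the members. Every listed gene passed the filter on low counts (over 1 CPM in at least 3 of the libraries compared) in every comparison. In MFN2 libraries 72 to 76 against WT, 20 of their 80 entries were called (25.0%), near the 23.8% of all genes tested. The nodal sodium and potassium channels had 5 of 11 genes called, 3 higher and 2 lower, with a median log2 fold change of 0.054 beside -0.00066 over all genes tested. Scn4b, a beta subunit of sodium channels, fell by 0.31 ± 0.083 on the log2 scale (adjusted p = 0.0190, edgeR with Benjamini-Hochberg adjustment). Scn2a, the alpha subunit of immature nodes and of unmyelinated axons, was at 203, 152, 194, 186 and 142 CPM in the MFN2 libraries and at 139, 107, 117 and 86.6 CPM in WT. Its groups did not overlap, as for 19.8% of all genes tested. Scn2a rose by 0.64 ± 0.15 (adjusted p = 0.0137), and Scn3b and Scn2b rose by 0.51 and 0.47 (adjusted p = 0.0357 and 0.0332). Scn8a, the alpha subunit of mature nodes, was at 656 ± 15.8 CPM (SD, n = 5) and 656 ± 39.1 CPM (n = 4), with a difference of -0.0027 ± 0.049 (adjusted p = 0.976). The potassium channel gene Kcnq3 differed by -0.028 and was not called.

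Of the other spectrins, ankyrins and initial segment genes, 3 of 12 were called, all higher. They were Fgf12 (0.24 ± 0.051, adjusted p = 0.00580) and Fgf14 (0.27 ± 0.074, adjusted p = 0.0193), which bind sodium channels, and the kinase gene Camk2d (0.23 ± 0.064, adjusted p = 0.0231). Ank2, Sptan1 and Sptbn1, relatives and partners of the nodal anchors, differed by 0.035, -0.018 and -0.070 and were not called. Among the perinodal matrix and glial ligands 3 of 10 were called. Vcan, a proteoglycan of the nodal matrix, rose by 0.43 ± 0.11 (adjusted p = 0.0202), and Tnr, a matrix glycoprotein, by 0.17 ± 0.052 (adjusted p = 0.0306). Hapln2, the link protein of the nodal matrix that oligodendrocytes make, was at 65.4, 78.9, 63.0, 69.6 and 90.0 CPM in the MFN2 libraries and 79.1, 142, 115 and 135 CPM in WT. It fell by 0.69 ± 0.17 (adjusted p = 0.0220), with overlap at WT 44, the library that was also lowest in WT for Cntn2.

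None of the 10 glial genes of the paranodal loop and its lipids was called, and 2 were at an unadjusted p under 0.05, beside 37.8% of all genes. Gal3st1, which makes the sulfatide of paranodal junctions, had the lowest log2 fold change at -0.46 ± 0.18 (adjusted p = 0.0887). Of the juxtaparanode genes 4 of 14 were called. Adam22 and Dlg2, partners of the Kv1 channels, rose by 0.15 ± 0.040 (adjusted p = 0.0173) and 0.17 ± 0.055 (adjusted p = 0.0446). Lgi3, a secreted ligand of the ADAM22 family, fell by 0.30 ± 0.058 (adjusted p = 0.00403), and Epb41l1, a paralog of Epb41l3, by 0.20 ± 0.052 (adjusted p = 0.0158). The channel genes Kcna1 and Kcna2 differed by -0.075 and 0.026 and were not called.

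Of the 23 paralogs of the members 5 were called. The contactin gene Cntn6 was at 35.8, 37.0, 36.9, 36.9 and 35.3 CPM in the MFN2 libraries and 29.5, 25.2, 28.2 and 29.2 CPM in WT, and rose by 0.37 ± 0.059 (adjusted p = 0.00127). The groups did not overlap, as for 19.8% of all genes tested. Epb41 rose by 0.42 ± 0.077 (adjusted p = 0.00283), Cntnap5b by 0.40 ± 0.080 (adjusted p = 0.00477) and Cntnap4 by 0.21 ± 0.066 (adjusted p = 0.0406), while Epb41l1 fell as given above. The median over the 23 genes was 0.13. Without library 73 the counts of the first 5 lists were the same, and 6 paralogs were called, whereas Cntnap4 no longer passed (adjusted p = 0.0573).

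Glial markers differed in the same libraries, where genotype and library number cannot be told apart. Of 6 astrocyte markers 5 were called lower in MFN2 libraries 72 to 76 than in WT. Their sum was 5810, 6029, 5859, 5764 and 7155 CPM against 7794, 8727, 7764 and 7917 CPM, without overlap, with Slc1a2 as the most abundant gene and none at 0 counts. Gfap, the intermediate filament of reactive astrocytes, fell by 1.08 ± 0.26 (adjusted p = 0.0213). Of 5 microglia markers 4 were called lower, with sums of 87.0, 83.4, 85.7, 74.02 and 92.2 CPM against 93.8, 126, 108 and 114 CPM, again without overlap, Csf1r as the most abundant and none at 0 counts. Of 9 mature oligodendrocyte markers 0 were called and 1 had an unadjusted p under 0.05, with sums of 22844 to 34598 CPM in the MFN2 libraries and 24030 to 30751 CPM in WT, and Mbp differed by -0.38 (adjusted p = 0.109). Of 7 neuron markers Snap25 fell by 0.18 and Syt1 rose by 0.47 (adjusted p = 0.0414 and 0.0327). Of 6 motor neuron markers 0 were called, with 1 at an unadjusted p under 0.05. Gpr17, a gene of premyelinating oligodendrocytes, rose by 0.41, as the 1 gene called of 6 in the list of precursor and premyelinating oligodendrocytes. Cldn5 was the 1 endothelium marker of 4 called and fell by 0.82, while Flt1 of that list was at 0.64 and not called. The mean endothelium sum was 119 CPM in libraries 72 to 76 and 109 CPM in WT. Nrgn rose by 0.57, as the 1 gene called of 8 forebrain genes tested, which ranged from -1.12 to 0.57. Without library 73 the astrocyte and microglia counts were 3 and 2, and Snap25 no longer passed (-0.15, adjusted p = 0.103). In libraries 41 to 43 against WT, 0 astrocyte and 0 microglia markers were called, beside 0.00658% of genes. Their median log2 fold changes were -0.15 and 0.26 there, and 0.029 and 0.072 without library 43. Libraries 72 to 76 against 41 to 43 had medians of -0.18 and -0.72, with 0 and 1 called lower, beside 2.19% of genes. Without library 43 these medians were -0.37 and -0.58, with 3 and 2 called lower, beside 15.3%. The part of these cell types in the values of Nfasc and Cntn2 was not tested.

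Over all 12 libraries and in libraries 41 to 43 against WT, 0 genes of the 6 lists were called in edgeR, while 20 and 15 of the 80 list entries had an unadjusted p under 0.05 (25.0% and 18.8%, beside 15.0% and 7.12% of all genes tested). The highest and lowest values of the lists that are reported here are given with the value without library 43 beside them. Over all 12 libraries, Scn2a was at 1.02 (0.61 without library 43) and Scn4b at -0.42 (-0.28) among the channels, and Fgf13 at 0.52 (0.32) and Fgf11 at -0.39 (-0.34) among the initial segment genes. Gldn was at 0.86 (0.77) and Hapln2 at -0.64 (-0.49) among the perinodal genes, and Gal3st1 at -0.45 (-0.35) was the lowest of the paranodal loop genes. Dlg2 at 0.34 (0.16) and Lgi3 at -0.37 (-0.27) bounded the juxtaparanode genes, and Cntnap3 at 1.07 (0.30) and Ank1 at -0.23 (-0.10) the paralogs. Library 43 thus set much of the size of Scn2a, Fgf13, Dlg2, Cntnap3 and Ank1, and adjusted p-values were at least 0.254 over the 12 libraries. All 8 MFN2 libraries lay above the WT libraries for Scn2a and below them for Lgi3, and 2.04% of all genes tested had groups without overlap. The nearest MFN2 and WT libraries were at 142 and 139 CPM for Scn2a, and at 191 and 197 CPM for Lgi3. Library 43 held 627 CPM of Scn2a, against 86.6 to 203 CPM in the other 11.

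In libraries 41 to 43 against WT, library 43 carried most of the extremes, and the second value leaves 2 libraries against 4. Scn2a was at 1.52 (0.52 without library 43) and Scn4b at -0.62 (-0.21), and Fgf11 was lowest of its list at -0.40 (-0.23). Gldn was at 0.95 (0.67) and Hapln2 at -0.55 (-0.087). Opalin turned from -0.25 to 0.080, while Mag was at -0.46 (-0.13). Dlg4 was at 0.72 (0.19) and Lgi3 at -0.49 (-0.20), and Cntnap3 turned from 1.73 to -0.34, with Ank1 at -0.38 (-0.017). Adjusted p-values were at least 0.622 with library 43.

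Libraries 72 to 76 against 41 to 43 also called 0 genes of the 6 lists, with 16 of 80 list entries (20%) at an unadjusted p under 0.05, beside 24.6% of all genes. Scn1a was at 0.48 (0.22 without library 43) and Scn3b at -0.95 (-0.0052) among the channels, and Vcan at 0.37 (0.39) and Adam23 at 0.45 (0.25) were the highest of their lists. Dlg4 was at -0.66 (-0.12), Gal3st1 at -0.018 (-0.35) and Epb41 at 0.75 (0.50). Without library 43 the sign turned for Ank1, from 0.25 to -0.12, for Ncan, from -0.42 to 0.14, and for Cntnap3, from -1.24 to 0.84. Without library 43 there were 8 of 80 list entries called (10%), beside 15.3% of all genes. Scn1a, Adam23, Cntn6, Cntnap5b and Epb41 were higher, and the other 3 entries were lower.

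Across the 12 libraries the members did not vary as 1 block, and most of their correlations changed without library 43. These are Pearson correlations of log2 CPM over libraries that share groups and runs of numbers, given as a description. Nfasc and Ank3 correlated at 0.92 over 12 libraries and at 0.83 over the 11 without library 43, and the paranodal partners Cntn1 and Cntnap1 at 0.68 and 0.81. Nfasc and Cntn2, neighbours on the chromosome, stood at 0.33 and -0.63. Epb41l3 and Nrcam turned from -0.89 to 0.33, and Nfasc and Epb41l3 went from 0.84 to 0.31. The partners Cntn2 and Cntnap2 stood at -0.10 and -0.30. Against summed markers without library 43, Cntn2 correlated with the astrocyte list at 0.84, the microglia list at 0.78, the mature oligodendrocyte list at 0.45 and the neuron list at 0.28. Nfasc correlated with these lists at -0.62, -0.48, 0.25 and 0.089, and with the list of precursor and premyelinating oligodendrocytes at 0.73, where Cntn2 stood at -0.17. Epb41l3 correlated with the neuron list at 0.87. These pairs are a choice from all members and lists, made after their values were seen.

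**Figure D5:**
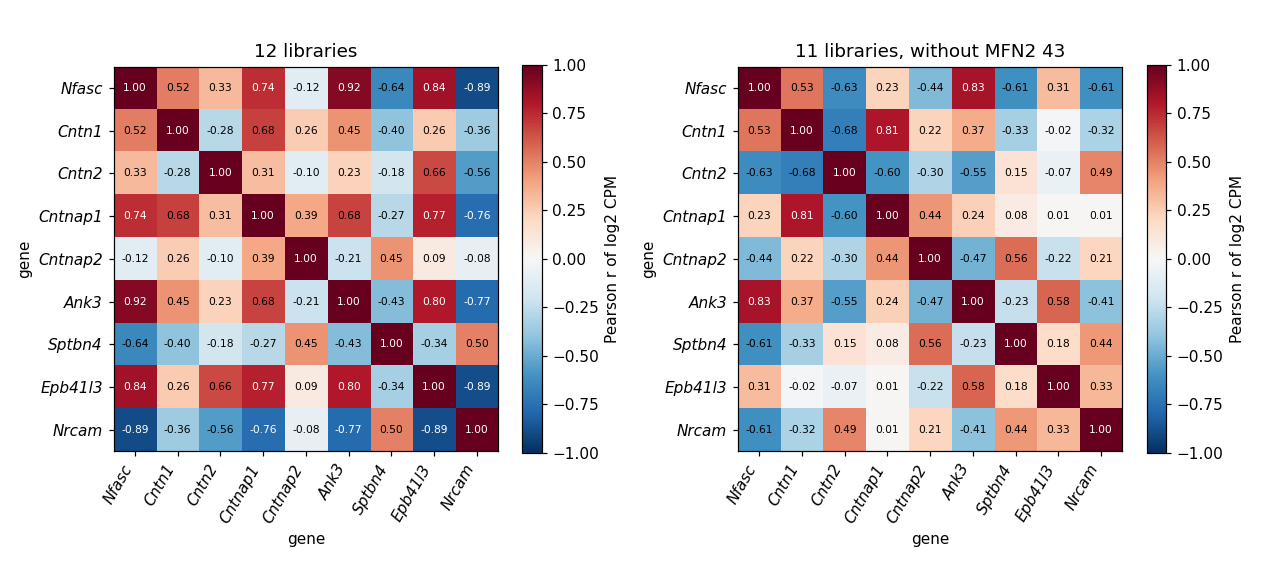
Pearson correlation of log2 CPM between each pair of the 9 genes, over 12 libraries (left) and over 11 without library 43 (right); colour from -1 (blue) to 1 (red). Nfasc and Ank3 stay high at 0.92 and 0.83, whereas Nfasc and Cntn2 go from 0.33 to -0.63 and Epb41l3 and Nrcam from -0.89 to 0.33.

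For each member the 3 tested genes with the most similar levels over the 12 libraries were listed, with the correlation without library 43 beside it. Those of Nfasc were Pdzd8, Kndc1 and Mtmr2 (0.98 each, and 0.95, 0.97 and 0.94 without library 43), and those of Cntn2 were Dync1li2, Dnajb2 and Fbxo32 (0.99, 0.98 and 0.98, and 0.99, 0.97 and 0.97). Epb41l3 was followed by Akap12, Nefl and Sncg at 0.99 each, which fell to 0.89, 0.87 and 0.85. Nrcam was followed by Klf16, Ephx4 and Cckbr at 0.98 each, falling to 0.81, 0.76 and 0.79. For Ank3 they were Tmem181c-ps, Wdr70 and Eprs (0.97, 0.97 and 0.94, and 0.97, 0.94 and 0.88), and for Cntnap1 Lynx1, Ago1 and AI854703 (0.95, 0.94 and 0.94, and 0.85, 0.84 and 0.81). For Sptbn4 they were Jag2, Cby1 and Becn1 (0.95, 0.88 and 0.87, and 0.94, 0.86 and 0.86). Cntn1 had Klhl42, Zfp280b and Nup205 (0.94, 0.90 and 0.89, and 0.94, 0.92 and 0.88). Cntnap2, with the smallest spread, had 1600014C10Rik, Tbc1d30 and Ctxn2 (0.89, 0.89 and 0.85, and 0.90, 0.90 and 0.87). These genes were picked as the highest of all those tested, so their correlations are high by choice.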

How the data were processed

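RNA of lumbar spinal cord from 8 MFN2 and 4 WT mice was analysed. The authors deposited raw whole-number counts per Ensembl gene for each library, made by adapter trimming and alignment with STAR to GRCm38 (GRCm38.p6 in the submitters' notes, without tool versions). The labels name a SMARTER mRNA-Seq kit and the study's text a stranded kit. Neither the tool that counted reads nor its use of strand is given in the sources used here, and reads of isoforms were summed per gene.

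Libraries held 19359454 to 26738930 counts. Genes over 1 CPM in at least 3 of the libraries fitted were tested with edgeR (version 4.0.16, R 4.3.3), using TMM scaling, the robust quasi-likelihood test and Benjamini-Hochberg adjustment over all genes tested. A gene was called at an adjusted p of 0.05 or less. Standard errors were derived from the F statistic, and log2 CPM used a prior count of 2. The 4 comparisons were all MFN2 libraries, libraries 72 to 76 and libraries 41 to 43, each against WT, and libraries 72 to 76 against 41 to 43. They share libraries, as stated beside them. DESeq2 (1.42.0), limma-voom (3.58.1), other scalings and filters, a covariate for the library numbers (41 to 47 or 72 to 76) and leaving out each library were alternatives. Counts and fold changes of list genes without libraries 43 and 73 were added after the data had been seen. The scripts were tested on simulated data. RPKM is CPM per kilobase of the union of GENCODE M21 exons, and 49289 of the 49548 gene identifiers matched that annotation.

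Pairs of libraries of 1 group differed beyond sampling noise, with chi-square per degree of freedom of at least 4.99, so that no library was counted as deposited more than once. Whether the mice were littermates is not in the labels. The 9 genes, the lists of related and marker genes and the comparisons were chosen with earlier results of these data known. From each related list the called genes were named, at most 4 in each direction by lowest p, and where none was called the highest and the lowest log2 fold change. The values of some listed genes are not reported here. Scn8a, the Kcnq, Kcna, ankyrin and spectrin genes outside this rule and the marker genes, Hoxd10 among them, were named after their values were seen.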

Additional observations from a re-analysis of the deposited data

Results flagged for a closer look

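Each flag below marks a library whose distance to its nearest neighbour took up more of its group's range than Dixon's 95% limit allows. Of 38 groups tested 11 were flagged, 6 of them through MFN2 library 43, where about 1.9 (1 in 20) are flagged by chance. The share of the range is given for each.

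Among the members, library 43 was the lowest MFN2 library for Epb41l3 (share 0.742) and Cntnap1 (0.529) and the highest for Nrcam (0.775). In its marker sums it was the lowest for the neuron list (0.535) and the caudal Hox list (0.832) and the highest for the forebrain list (0.986). In the WT group, library 44 was the lowest for Epb41l3, at 645 CPM beside 800.2 to 809 CPM (0.947), and the highest for Cntn1, at 632 CPM beside 567 to 576 CPM (0.853), and for Cntnap1, at 240 CPM beside 203 to 208 CPM (0.874). The astrocyte sum was highest in MFN2 library 41 among the MFN2 libraries (0.614) and in WT library 45 among the WT libraries (0.841).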

How the results depend on the processing

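Nfasc stayed higher and Cntn2 lower, and both stayed called, in libraries 72 to 76 against WT under every alternative run, with Nfasc at 0.26 to 0.31 and Cntn2 at -0.56 to -0.40 when each library was left out. In that comparison 4 members were called with library-size scaling and 3 with DESeq2, and 2 to 3 when a library was left out, where Cntn1 passed without WT library 44 (0.16, adjusted p = 0.0283). Genes called ranged from 2350 (without WT library 45) to 4517. Signs near 0 turned for Cntnap2 (-0.0038 without a filter, -0.00062 in DESeq2, -0.031 to 0.028 over left-out libraries) and, with library-size scaling, for Sptbn4 (0.0087) and Nrcam (0.0087).

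Over all 12 libraries, called genes numbered 122 in DESeq2, 3746 with libraries 72 to 76 alone (2 members), 1 with libraries 41 to 43 alone, and 0 to 19 when a library was left out, 19 without library 43, with 0 members in each. Sptbn4 turned to 0.044 with library-size scaling, 0.00065 with DESeq2 size factors, 0.0022 with upper-quartile scaling, 0.080 with a covariate for the library numbers and 0.097 with libraries 41 to 43 alone. With that covariate Nfasc was at -0.26, Cntnap1 at -0.12 and Ank3 at -0.088, and with libraries 41 to 43 alone at -0.25, -0.10 and -0.073. With libraries 72 to 76 alone Epb41l3 was at 0.081 and Nrcam at -0.062. Leaving out libraries gave -0.056 to 0.036 for Sptbn4, -0.14 to 0.055 for Epb41l3, -0.037 to 0.12 for Nrcam, -0.011 to 0.072 for Cntnap1 and -0.023 to 0.040 for Cntnap2.

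Libraries 41 to 43 against WT gave 0 called genes without a filter, 4 in DESeq2 and 0 to 2 over left-out libraries, and Cntnap1 ranged from -0.20 to 0.010. Libraries 72 to 76 against 41 to 43 gave 1556 genes and 1 member in DESeq2, and 31 to 2375 genes and 0 to 2 members over left-out libraries, with the most without library 43, while Cntnap2 turned to 0.028 with library-size scaling and Cntn2 ranged from -0.40 to 0.067. Apart from the values that the settings change by leaving out libraries or genes, the cause was not tested. No paired analysis was done, because the labels give no litter or other pairing of MFN2 and WT mice.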
